A study of Homo sapiens with 2 samples.

Results

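KRT6A, KRT6B, KRT6C, KRT16 and KRT17, the stress-inducible keratins, were examined in Ca9-22 cells infected with a lentiviral vector for the long noncoding RNA DLEU1 or with a control vector. Their probes were all non-control probes whose gene name on the array equals 1 of these 5 symbols. This gave 6 probes for 5 genes, of 58201 probes and 43317 gene names. The Ca9-22 line comes from an oral squamous cell carcinoma (OSCC). Both groups carried a vector and were kept under blasticidin, given in the labels as 6 mg/ml, for 2 weeks. Full-length DLEU1 cDNA was cloned from another OSCC line into the expression vector, and the control was the empty vector, so expression was ectopic and in a selected pool of cells. There was 1 array per group, so no test, p-value or replicate error exists for any value, and the precision is limited by the number of arrays. Differences are therefore given as DLEU1 vector minus control vector on the log2 scale and called at 2-fold, and they compare these 2 arrays.

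Keratins are the intermediate filament proteins of epithelial cells, and each filament pairs a type I with a type II chain. KRT6A, KRT6B and KRT6C are type II chains, and KRT16 and KRT17 are type I chains. KRT6 isoforms pair mainly with KRT16 and KRT17. In skin they are low between the hair follicles and are switched on above the basal layer after wounding, in psoriasis and in many squamous carcinomas, whereas oral epithelium holds some of them without injury. KRT17 also binds the adaptor protein 14-3-3 sigma and takes part in growth signalling.

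The array probes are 60 bases long, and near-copies of these genes exist, so the letters of a probe bear on which transcript its value can be given to. Among 101 probes of keratins and keratin pseudogenes, each pair was slid along without gaps, with an overlap of at least 30 bases. The probes of KRT6C, KRT16 and KRT17 are shown with the keratin probe most like each, since these pairs bear most on the values that follow. Capitals mark the bases that are identical in the overlap.
KRT6C: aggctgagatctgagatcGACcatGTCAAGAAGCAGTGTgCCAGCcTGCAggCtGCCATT
KRT75: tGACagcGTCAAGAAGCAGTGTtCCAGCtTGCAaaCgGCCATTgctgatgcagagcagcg
KRT16: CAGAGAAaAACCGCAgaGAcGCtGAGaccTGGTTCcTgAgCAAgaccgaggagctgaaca
KRT14: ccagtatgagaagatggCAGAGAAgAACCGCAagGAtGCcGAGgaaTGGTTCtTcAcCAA
KRT17: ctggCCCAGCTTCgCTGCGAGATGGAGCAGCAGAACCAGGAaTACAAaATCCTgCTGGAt
KRT17P2: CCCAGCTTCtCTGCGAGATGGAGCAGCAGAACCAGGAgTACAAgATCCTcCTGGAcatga

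The KRT6C and KRT75 probes were identical at 34 of 43 overlapping bases (79.1%), with a longest shared run of 15 bases. For KRT16 and KRT14 this was 32 of 43 (74.4%), with a longest run of 7 bases. The KRT17 probe and that of its pseudogene KRT17P2 shared 51 of 56 bases (91.1%), with an unbroken run of 27 bases. The KRT6A and KRT6B probes had no partner of that kind, with KRT74 at 27 of 50 bases (54.0%) and KRT86 at 16 of 30 bases (53.3%) as their most alike. Whether the probe of 1 KRT6 gene also binds transcripts of the others was not tested.

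In the hg19 coordinates of the array files all 6 probes lie on the minus strand. The KRT6B probe (A_23_P76249, for NM_005555) is at chr12:52840556-52840615, the KRT6C probe (A_23_P366936, for NM_173086) at chr12:52863651-52864324 and the KRT6A probe (A_33_P3292886, for NM_005554) at chr12:52881087-52881146. The KRT16 probe (A_23_P38537, for NM_005557) is at chr17:39767216-39767364 and the KRT17 probe (A_23_P96158, for NM_000422) at chr17:39776976-39777035. The KRT6C and KRT16 probes span 674 and 149 genomic bases for 60 bases of probe, so each crosses at least 1 intron. A further KRT16 probe (A_33_P6594257, for ENST00000590990) lies at chr17:39771836-39771895, and an exon map of hg19 was not used here.

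With the DLEU1 vector, all 5 stress keratins were higher, by 7.49-fold to 101-fold. The count at least 2-fold higher was 5 of 5, where 1858 of the 20246 gene names detected on both arrays (9.18%) were, and 0 of 5 were at least 2-fold lower, against 1981 (9.78%). The median difference of the 5 was 3.77, beside -0.07 over all genes detected on both arrays. At least 8-fold higher were KRT6B, KRT6C, KRT16 and KRT17, 4 of 5, where 0.617% of all genes were. In bulk RNA, more cells that express a keratin and more RNA per cell cannot be told apart.

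Signals of different probes are not comparable, so each gene is described against itself, the type II chains first. KRT6A is the main KRT6 isoform of many epithelia. The KRT6A probe gave a processed signal of 16673 on the control array and 121676 on the DLEU1 array, with error-model errors of 1667 and 12168 from the scanner software. After scaling to the 75th percentile of each array this was a log2 level of 6.10 and 9.01, a difference of 2.91 (7.49-fold). KRT6A was thus bright on both arrays and had the smallest difference of the 5.

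KRT6B, a close paralog of KRT6A, went from a processed signal of 1295 to 17166. Its log2 level went from 2.42 to 6.18, a difference of 3.77 (13.6-fold). KRT6C, the third KRT6 isoform, went from 2183 to 33244, or from a log2 level of 3.17 to 7.14, a difference of 3.97 (15.6-fold). The differences of KRT6B and KRT6C lay 0.20 apart, within the 0.204 that the error model gives as SD of either difference. That of KRT6A was 0.86 below KRT6B and 1.06 below KRT6C. Each rests on 1 probe, and different probes of the same gene had a wider spread, with a pooled SD of 0.459 over 3942 genes.

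KRT16, the type I partner of KRT6, had the largest difference among the members. Its processed signal was 121.5 (error 12.7) on the control array and 11988 (error 1199) on the DLEU1 array. Its log2 level went from -0.99 to 5.67, a difference of 6.66 (101-fold), with an error-model SD of 0.209, and the normexp background correction gave 5.98. On the control array the spot was dim but well above background, with a raw mean of 142 ± 52.4 (SD over 43 pixels) over a local background of 23. The raw mean with the DLEU1 vector was 10837 ± 1535 (SD over 44 pixels), over the same background of 23. The pixel SD and the error model describe 1 spot and are not replicate errors. The further KRT16 probe was not well above background on either array, with processed signals of 3.79 and 3.76, and gives no level for KRT16.

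KRT17, which pairs with KRT6 as KRT16 does, had a processed signal of 2930 on the control array and 24308 on the DLEU1 array. Its log2 level went from 3.60 to 6.69, a difference of 3.09 (8.52-fold). The KRT16 and KRT17 probes lie 9.72 kb apart, yet their differences were 3.57 apart on the log2 scale, an 11.9-fold ratio. The difference of KRT17 was close to that of KRT6A, 0.19 above it, and 0.68 and 0.88 below those of KRT6B and KRT6C. The order of the differences was thus KRT16, KRT6C, KRT6B, KRT17 and KRT6A. The neighbouring pairs KRT6C with KRT6B and KRT17 with KRT6A lay within the error-model SD of a single difference. With 1 detected probe per gene, the choice of probe may set the order of KRT6C, KRT6B, KRT17 and KRT6A. Their gaps were not tested against the spread between probes of the same gene (pooled SD 0.459).

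**Figure D1:**
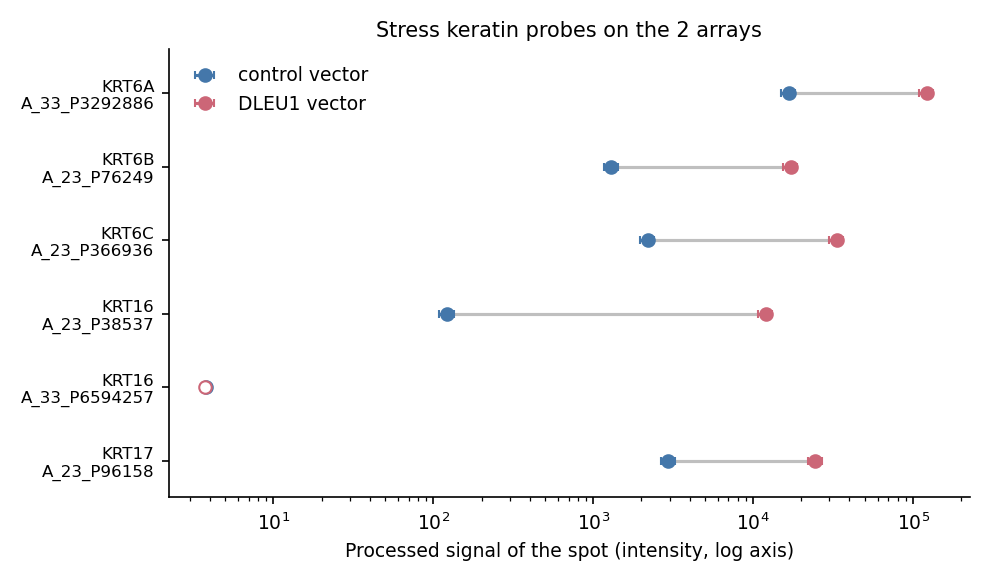
Processed signal (horizontal log axis) of each stress keratin probe (vertical axis) with the control vector (blue) and the DLEU1 vector (red), 1 array each; bars are the scanner software's error of the spot and open points a probe not well above background. Each of the 5 detected probes lies further right with the DLEU1 vector, from 7.49-fold (KRT6A) to 101-fold (KRT16), and positions of different probes are not comparable with each other.

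None of the member spots was flagged as an outlier and none held a saturated pixel. Signal was lower over part of the DLEU1 vector array, so the spots around each member were examined. Among the 100 nearest spots lit on the control array, 11% to 16% were at least 2-fold lower around the detected members, against 13.0% over the whole array. The median difference of the 100 nearest spots detected on both arrays lay between -0.15 (KRT6A) and -0.03 (KRT6B and KRT6C), beside -0.09 over all such spots. Each member was a single spot, whereas 282 probes printed more than once had a spot SD of 0.0800 for the same difference.

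Within the order of all 20246 differences, KRT16 stood at rank 5 from the top, KRT6C at 43, KRT6B at 51, KRT17 at 106 and KRT6A at 132. The genes with differences nearest to that of KRT16 were LCE3D (8.07) and S100P (7.35) above it and SPRR2E (6.56) and SERPINB3 (6.40) below it. LCE3D and SPRR2E are cornified envelope genes. KRT6C stood below GLIS1 (4.0) and COL1A1 (3.99) and above NUPR1 (3.87) and LMO1 (3.86). KRT6B stood below SMIM5 and CDH16 (both 3.80) and above CLIC3 (3.74) and the squamous serpin SERPINB13 (3.71). KRT17 stood below RHOV (3.12) and the keratin KRT75 (3.11) and above CPE and STX19 (both 3.08). KRT6A stood below MPPED2 and GYG2P1 (both 2.94) and above CREG2 (2.86) and LYNX1 (2.85). This likeness is a gap between differences over 2 arrays, and for KRT16 it was wide, at 0.69 to the next gene above and 0.10 to the next below.

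**Figure D2:**
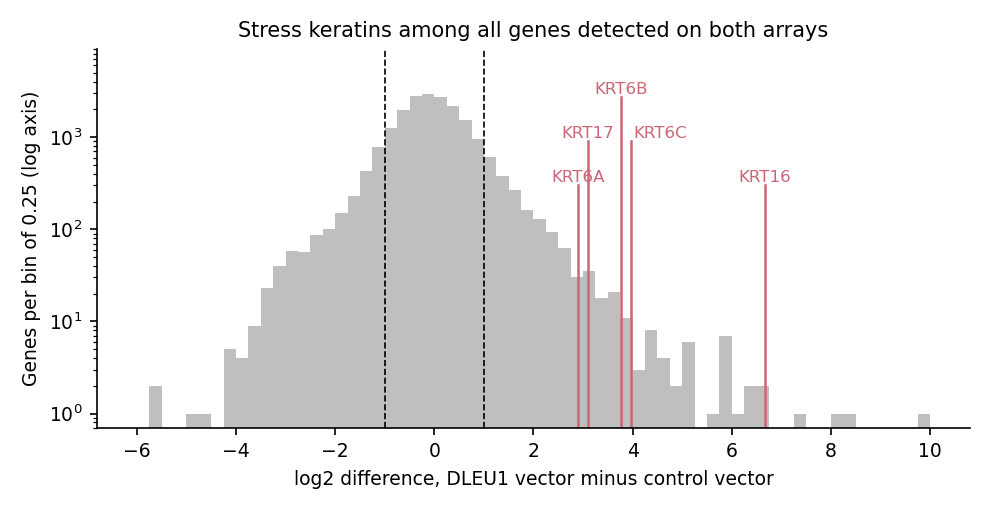
Number of genes (vertical log axis) by log2 difference, DLEU1 vector minus control vector (horizontal axis), over the 20246 gene names detected on both arrays; red lines mark the stress keratins and dashed lines 2-fold. All 5 members lie in the right tail, KRT16 at 6.66 and the other 4 between 2.91 and 3.97, while the median of all genes is -0.07.

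Other keratins were compared to show how far the pattern held across the family. Of 55 keratin genes on the array, 32 were detected on both arrays, and 17 of these were at least 2-fold higher, the 5 stress keratins included, and 2 at least 2-fold lower. Without the stress keratins it was 12 of 27 higher (44.4%) and 2 lower, with a median difference of 0.53. This was 9 of 27 with a median of 0.18 under spike-in scaling, and 7 of 19 with a median of 0.18 among genes with signals of 100 or more. A further 10 keratins were detected with the DLEU1 vector only, none with the control vector only, and 13 on neither array. The share of all gene names found on 1 array only is not given here, so these counts have no background. Of all probes, 47.6% passed detection on the control array and 48.1% on the DLEU1 array. Among the 10, the lower bounds of KRT39 (1.47-fold), KRT26 (1.80-fold) and KRT24 (1.96-fold) were under 2-fold, and those of the others were above it. The shares among keratins detected on both arrays were not tested against the 9.18% of all genes, which holds for the main setting. All genes at least 2-fold higher were 1074 of 20246 with spike-in scaling. Among genes with signals of 100 or more they were 1026 of 14112.

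The basal keratins were all higher, as the stress keratins were. KRT5, KRT14 and KRT15, which mark the basal layer, were 2.10, 2.85 and 2.74 higher. Thus 3 of 3 were at least 2-fold higher, where 9.18% of all genes were. The second KRT14 probe gave 3.16. The differences of KRT17 (3.09) and KRT6A (2.91) were close to those of KRT14, while those of KRT6B, KRT6C and KRT16 exceeded both KRT14 probes.

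The keratins of suprabasal and surface layers were mixed. Of 15, 8 were detected on both arrays, with 5 at least 2-fold higher, 1 lower and a median of 1.56. Among all genes 9.18% were higher and 9.78% lower. With a signal of at least 100, 2 of 5 of these keratins were higher (median 0.53), beside 1026 of 14112 genes. Normexp gave 4 of 8 (median 0.86), beside 1121 of 20246 genes. KRT4 (8.36) and KRT13 (5.80), the pair that marks layers above the basal one in non-cornified oral epithelium, were among the highest, and KRT80 (-1.01) and KRT3 (0.14) were the lowest. KRT1, the early differentiation keratin of epidermis, was detected with the DLEU1 vector only and was at least 1468-fold higher, while its partner KRT10 differed by 0.53. Also detected with the DLEU1 vector only were KRT23 (at least 33.4-fold higher), KRT76 (at least 4.49-fold), KRT77 (at least 4.23-fold) and KRT24 (at least 1.96-fold).

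Of the simple epithelial keratins, found in single-layered epithelia, 1 of the 4 detected on both arrays was at least 2-fold higher, where 9.18% of all genes were. KRT19 was higher by 1.27, and KRT8 and KRT7 differed by 0.18 and 0.12. KRT18, the partner of KRT8, differed by -0.93 on its brightest probe and by -1.04 on its other probe. KRT20 was detected with the DLEU1 vector only, at least 2.59-fold higher. The signs of KRT7, KRT8 and, among the surface keratins, KRT3 turned with spike-in scaling, as did the median of this class (0.15, and -0.20 with spike-in scaling). In that scaling 0 of the 4 were at least 2-fold higher and 1 lower, where 1074 and 3988 of all 20246 genes were.

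Of 26 keratins of hair and root sheath, 12 were detected on both arrays, 3 of them higher and 1 lower. The shares among all genes were 9.18% higher and 9.78% lower, and the counts were not tested against them. The median of these keratins was 0.21. It was -0.15 with spike-in scaling, 0.10 with median scaling, 0.12 with normexp and 0.06 over genes with signals of 100 or more. The 3 higher ones were KRT75 (3.11), a companion-layer keratin of the hair follicle, KRT74 (2.60) and KRT34 (1.23). The lowest were KRT86 (-1.0) and KRT81 (-0.48). With the DLEU1 vector only were KRT37 (at least 35.2-fold higher), KRT72 (at least 2.38-fold), KRT26 (at least 1.80-fold) and KRT39 (at least 1.47-fold).

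**Figure D3:**
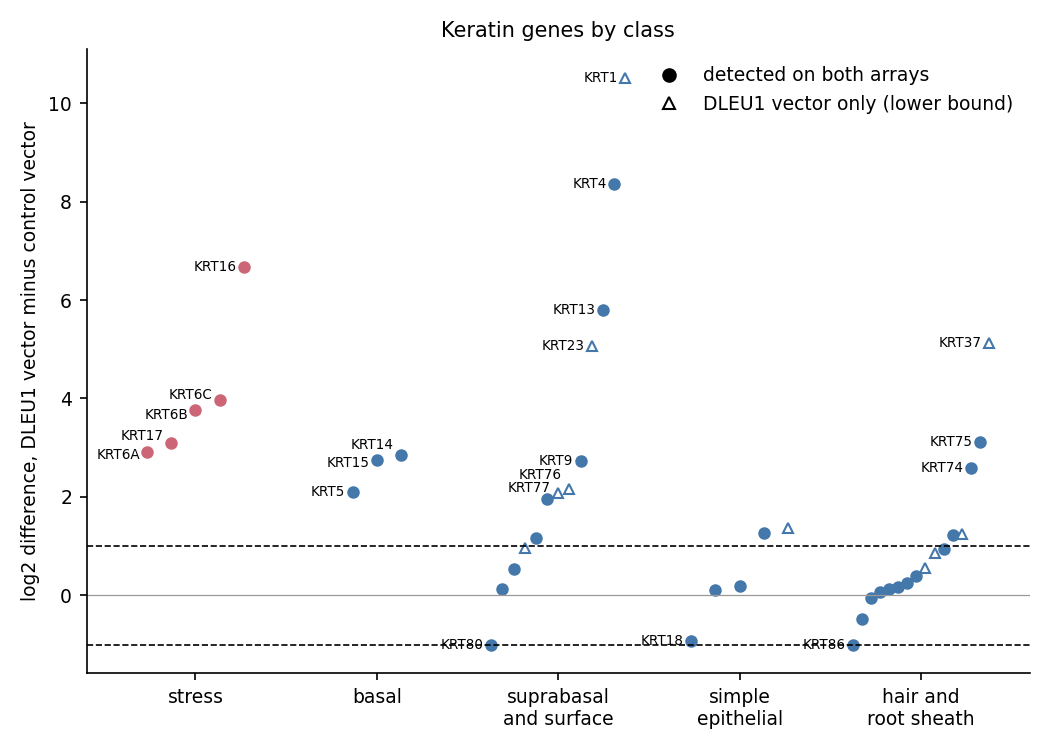
log2 difference, DLEU1 vector minus control vector (vertical axis), of each keratin gene by class; filled points were detected on both arrays, open triangles with the DLEU1 vector only and show a lower bound, and dashed lines mark 2-fold. The stress (2.91 to 6.66) and basal (2.10 to 2.85) keratins all lie above 2-fold, whereas most simple epithelial and hair keratins lie between -1.0 and 2-fold higher, with KRT75, KRT74, KRT34, KRT19 and some lower bounds above.

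The members lie in the type II keratin cluster on chromosome 12 and the type I cluster on chromosome 17, which allows a look at their neighbours. The KRT6 probes span 40.5 kb, from KRT6B over KRT6C, 17.1 kb from KRT6A, to KRT6A. Within 50 kb of them were KRT75 (3.11), on the KRT6B side, and KRT5 (2.10), on the KRT6A side. All 5 keratin genes of this stretch, from KRT75 to KRT5, were at least 2-fold higher, where 9.18% of all genes were. KRT6A, KRT6B and KRT6C are among the 5, so the count is a description and no independent support. Just outside the stretch, KRT82 and KRT71 were detected on neither array. The nearest keratins outside it that were measured on both arrays were KRT85 on one side, with 0.26 (-0.10 with spike-in scaling), and KRT74 on the other, with 2.60.

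On chromosome 17, KRT14 (2.85) and KRT9 (2.74) lay within 50 kb on one side of KRT16 and KRT17. On the other side were the pseudogene KRT42P, with 1 probe at 3.55, 1 at 0.86 and 1 not well above background, and LOC100130654 at -0.54, which is no keratin. KRT19, KRT15 and KRT13, next along the cluster beyond KRT9, were 1.27, 2.74 and 5.80 higher. From KRT13 to KRT17 all 7 keratin genes were at least 2-fold higher, where 9.18% of all genes were. The 7 include KRT16 and KRT17, KRT16 had the largest difference of them, and KRT19 was under 2-fold with spike-in scaling. This stretch stops where the run of higher genes stops, so its count follows from its ends. Beyond KRT13, KRT36 and KRT35 were detected on neither array, and KRT32 differed by 0.06, a sign that turned with the scaling.

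**Figure D4:**
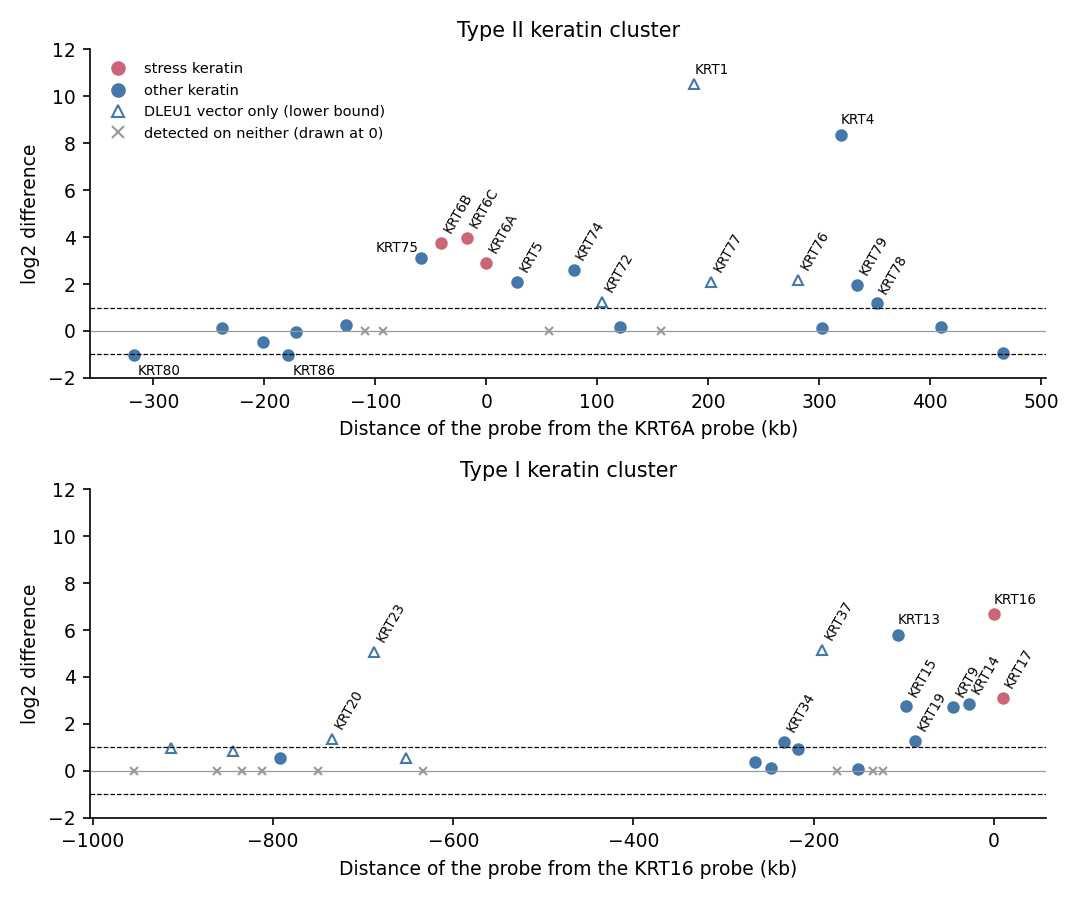
log2 difference, DLEU1 vector minus control vector (vertical axis), against the distance in kb of each keratin probe from the KRT6A probe (upper panel) and the KRT16 probe (lower panel); red points are stress keratins, open triangles lower bounds, and crosses genes detected on neither array, drawn at 0. KRT75, KRT6B, KRT6C, KRT6A and KRT5 form a run of higher genes, and KRT16 stands at 6.66 beside KRT17 at 3.09 and KRT14 at 2.85.

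Human KRT16 and KRT17 have several pseudogenes elsewhere on chromosome 17, and 9 probes on the array were annotated to them. Of these, 5 were detected on both arrays and all 5 were at least 2-fold higher, by 2.96 to 3.83, and 4 were detected on neither. Over the whole array, 2360 of 26279 probes detected on both arrays were at least 2-fold higher. KRT16P2 went from a log2 level of 2.38 to 6.20 (3.83) and KRT16P6 from 3.35 to 6.48 (3.13), which are smaller differences than the 6.66 of KRT16. KRT17P1 (3.38), KRT17P2 (3.01) and KRT17P3 (2.96) lay around the 3.09 of KRT17. Since the KRT17 and KRT17P2 probes share 51 of 56 bases, transcripts of the gene and of the pseudogene cannot be told apart by these 2 probes. Whether the other pseudogene probes also bind KRT16 or KRT17 transcripts was not tested, so their values cannot be given to the pseudogenes alone.

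Signals known to induce KRT6, KRT16 and KRT17 were looked at in the same arrays. Of 19 genes for inducing ligands, 13 were detected on both arrays, 0 at least 2-fold higher and 5 lower, with a median of -0.53. Over all genes 9.18% were higher and 9.78% lower, and the ligand counts were not tested against these shares. Among the 8 ligand genes with signals of 100 or more on both arrays, 0 were higher and 3 lower. Of all 14112 genes with such signals, 1026 were higher and 1433 lower. The lowest were NRG1 (-4.04) and EREG (-3.22), ligands of the ERBB receptor family, and the highest were EGF (0.75) and TGFB1 (0.55). The 6 on neither array were TNF, IL17A, IL22, IL36A, OSM and IFNG, of which TNF, IL17A and IL22 are psoriasis cytokines. The ligand proteins were not measured, and a part of the ligands in the keratin differences was not tested.

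Of 26 transcription regulators with reported action on these keratin genes, 25 were detected on both arrays, 4 higher and 1 lower, with a median of 0.31. With spike-in scaling it was 1 higher and 2 lower, where 1074 and 3988 of all 20246 genes were. In the main setting 9.18% of all genes were higher and 9.78% lower. The regulator counts were not tested against these shares. The 4 were JUNB (2.21), an AP-1 subunit, STAT3 (1.14), SP1 and FOSL2 (both 1.12). The lowest were FOSL1 (-4.05), another AP-1 subunit, and NFKB1 (-0.81). The AP-1 subunits FOSL1 and JUNB thus lay on opposite sides, and NFE2L2, which encodes NRF2, was not well above background on either array.

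Of 15 genes listed as keratin partners, desmosome and cornified envelope genes among them, all were detected on both arrays. Of these, 6 were higher and 0 lower, with a median of 0.45. Over all genes 9.18% were higher and 9.78% lower. The 6 were the desmosome genes DSG3 (2.51), PKP1 (2.28), DSC3 (1.67), JUP (1.58) and DSP (1.37) and the cornified envelope gene PPL (1.41). Other desmosome and envelope genes of the list were not, with PKP3 at -0.14, PKP2 at -0.63 and EVPL at 0.45. The lowest were PKP2 and PLEC (-0.48). SFN, which encodes the 14-3-3 sigma that KRT17 binds, had a log2 level of 9.31 on both arrays, and the sign of its difference turned with the scaling.

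Genes known to accompany the stress keratins in wounds and psoriasis were mostly higher too. Of 23, 13 were detected on both arrays, and 11 of these were at least 2-fold higher and 0 lower, with a median of 3.42. Over all genes 9.18% were higher and 9.78% lower. This list was drawn up with earlier results of these data known, so its count is a description and no independent support. The 0 lower leaves out genes detected on 1 array only, such as CXCL8 below. SERPINB3 (6.40) and SERPINB4 (6.35), squamous cell carcinoma antigens, were the highest, and CXCL5 (-0.42) and RNASE7 (0.94) the lowest. S100A8 and S100A9, the alarmin pair, were detected with the DLEU1 vector only, at least 43.8-fold and 31.1-fold higher, as was S100A12 (at least 3.35-fold). The chemokine genes CXCL8 (at least 7.85-fold lower), CXCL1 and CCL20 (both at least 1.12-fold lower) were detected with the control vector only. None of the 4 chemokine genes named here was higher with the DLEU1 vector.

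DLEU1 itself went from a log2 level of 3.17 to 5.91, a difference of 2.74 (6.67-fold), on its brightest probe, and its 3 probes ranged from 0.54 to 2.74. Epithelial markers EPCAM, CDH1, KRT5, KRT14 and TP63 were detected on both arrays, with differences of -0.78 to 2.85, and around 1 of the CDH1 spots 54% of the nearest 100 spots lit on the control array were 2-fold lower. Fibroblast markers COL1A2, COL3A1, DCN and THY1 were on neither array, COL1A1 went from a log2 level of 0.47 to 4.47, PDGFRB differed by -0.33 and LUM was detected with the DLEU1 vector only. Of immune markers CD3E was on neither array, CD14 differed by -1.60 and PTPRC by 0.45. Of endothelial markers PECAM1 and KDR were on neither array, CDH5 differed by -0.59 and the probes of VWF disagreed, from -0.07 to 3.70. Of melanocyte markers MLANA and TYR were on neither array, PMEL differed by 0.10 and DCT by -0.96. The signs of PDGFRB and PMEL turned under other scalings. The part of COL1A1, LUM and VWF in the keratin differences was not tested.

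Over 13 alternatives the 65 values of the members were all at least 2-fold higher. The order KRT16, KRT6C, KRT6B, KRT17, KRT6A held with quantile normalization, loess, subtraction of the nearest spots and normexp. The other scalings move all members by the same amount, and the filters left their values as they were. The series values held the same intensities to within 0.497%. None of these could change this order. KRT16 ranged from 5.98 to 6.82, KRT6C from 3.61 to 4.22, KRT6B from 3.41 to 4.0, KRT17 from 2.73 to 3.35 and KRT6A from 2.55 to 3.21. The lowest value of KRT16 came with the normexp background correction and the lowest values of the other 4 with spike-in scaling.

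**Figure D5:**
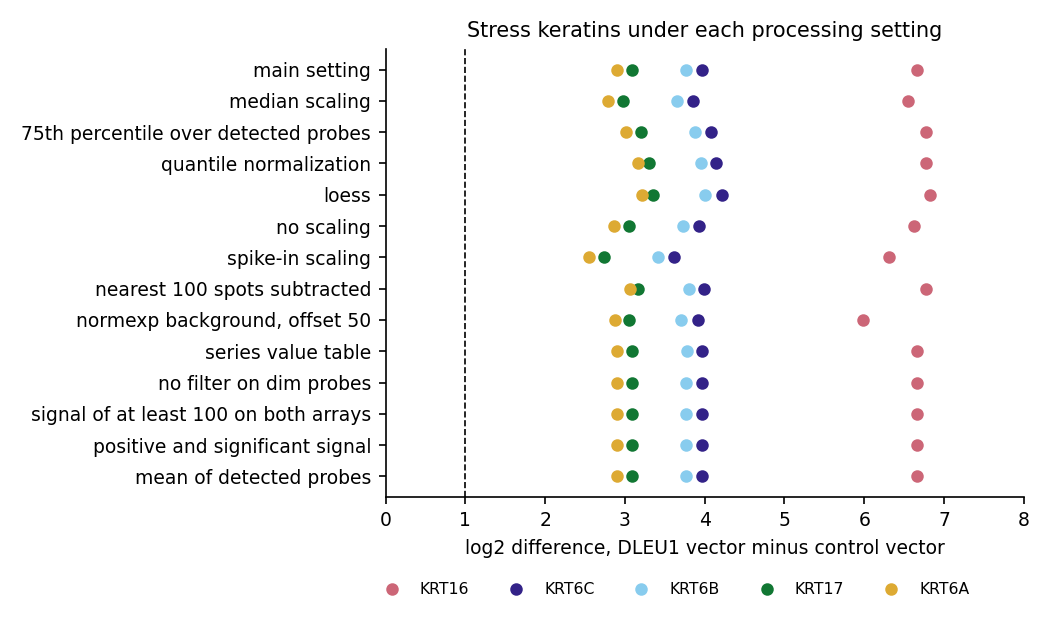
log2 difference, DLEU1 vector minus control vector (horizontal axis), of each stress keratin under the main setting and each alternative except the fold thresholds (vertical axis). The dashed line marks 2-fold. Points of the filters on dim probes and of the mean of detected probes repeat the main values. All points lie at 2.55 or more, and KRT16 lies between 5.98 and 6.82, nearest to the other 4 with normexp.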

How the data were processed

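Total RNA of Ca9-22 cells was labelled with Cy3 and hybridised to SurePrint G3 v3 one-colour arrays, 1 per group, on the same slide and in the same scan. Feature Extraction 10.7.3.1 (Agilent) had turned the scans into the deposited intensity values. Its settings, per the file headers, were local background subtraction, spatial and multiplicative detrending, and a surrogate for dim spots. The authors' series values held the same intensities to within 0.497%, and the authors used GeneSpring.

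Here log2 of the deposited processed signal was taken, outlier spots (84 with the control vector, 103 with the DLEU1 vector) were left out, replicate spots were averaged, and each array's 75th percentile over non-control probes was subtracted (7.92 and 7.88). A probe counted as detected where most spots were well above background, which held for 47.6% and 48.1% of probes. No spot was saturated. A gene took its brightest probe detected on both arrays. A gene detected on 1 array only has a bound, its level there against the higher of the dim probe's own and the lowest detected level on the other array. Different probes of a gene had a pooled SD of 0.459 (3942 genes). Gene names are those of the array design. Settings were recomputed with Python 3.11.15, pandas 2.3.3 and limma 3.58.1 in R 4.3.3, and the procedure was tested on simulated data.

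The members and lists were chosen with earlier results of these data known. Named were the members, DLEU1, the 2 highest and 2 lowest of each list, genes detected on 1 array only, neighbours in the order of differences and genes within 50 kb. Genes named to show a class or list as a whole go beyond this rule and were chosen after their values were seen. Alternatives concerned scaling, background, the filter on dim probes, the value of a gene, the source table and the fold threshold. One marker gene is not reported here.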

Additional observations from a re-analysis of the deposited data

How the results depend on the processing

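No member value reversed under any alternative. Each member has 1 probe detected on both arrays, so the filters on dim probes and the mean of detected probes could not move its value. The series values held the same intensities to within 0.497%. Of 65 member values, 37 moved by less than the spot SD of 0.0800, all of these included, and 28 by more. In the order KRT6A, KRT6B, KRT6C, KRT16 and KRT17, the latter were 2.79, 3.65, 3.85, 6.55 and 2.98 with median scaling, 3.02, 3.88, 4.08, 6.77 and 3.20 with the percentile taken over detected probes, 3.16, 3.96, 4.14, 6.77 and 3.30 with quantile normalization, 3.21, 4.0, 4.22, 6.82 and 3.35 with loess, and 2.55, 3.41, 3.61, 6.31 and 2.73 with spike-in scaling. Subtracting the nearest 100 spots gave KRT6A 3.06 and KRT16 6.77, and normexp gave KRT16 5.98. The median of all genes under these 5 scalings was -0.18, 0.04, -0.00, 0.03 and -0.43 in the same order, against -0.07. Quantile normalization and loess moved the members by unequal amounts. Keratin genes at least 2-fold lower went from 2 to 0 with the percentile over detected probes, quantile, loess, the nearest 100 spots, normexp and the 3-fold threshold, since KRT80 and KRT86 lie at the threshold. It was 3 with median scaling, spike-in scaling and the 1.5-fold threshold. Keratin genes at least 2-fold higher went from 17 to 26 with no filter on dim probes, and to 12 with a signal of at least 100, 14 with spike-in scaling and at 3-fold, and 15 with normexp.

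All genes at least 2-fold higher numbered 1858, but 1074 with spike-in scaling, 1121 with normexp, 4232 with no filter, 1026 with a signal of at least 100, 2909 with a positive and significant signal, 3731 at 1.5-fold and 774 at 3-fold. Those lower numbered 1981, but 3988 with spike-in scaling, 3807 with no filter, 4459 at 1.5-fold and 671 at 3-fold. The higher genes were 48.4% of those called, and 21.2% with spike-in scaling. Over the settings that recompute values, 11 to 12 of 13 wound and psoriasis companions and 6 keratin partners were higher. In these settings 1 to 6 transcription regulators were higher and 2 to 6 inducing ligands lower. The filter for signals of 100 or more left 8 wound and psoriasis companions, 7 of them higher. The median of the transcription regulators turned negative in some scalings (lowest -0.04). The cause of these changes was not tested. No paired analysis was possible because each group has 1 array. The number of arrays limits every value.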
